A study of Mus musculus with 8 samples.

Results

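Brown adipose tissue (BAT) lies between the shoulder blades directly on the muscles of the back, and its RNA can hold transcripts that are best known from skeletal muscle. The genes described here are 52 such transcripts, fixed as a list of sarcomere, excitation and muscle metabolism genes by symbol, out of 31053 identifiers in the count table of the series. They comprise 9 genes of fast fibres (Myh1, Myh2, Myh4, Tnnc2, Tnni2, Tnnt3, Actn3, Myl1, Mylpf), 6 genes of slow fibres (Myh7, Myl2, Myl3, Tnnc1, Tnni1, Tnnt1) and 37 other members. All 52 symbols matched 1 identifier each.

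BAT of C57BL6/J mice labelled as aged 8 weeks was profiled by bulk RNA-seq in 4 libraries labelled WT and 4 labelled Cd36KO, to ask how loss of the lipid scavenger receptor CD36 altered the tissue's transcriptome. Beyond Cd36KO the labels do not specify the genotype. The study's methods describe a floxed Cd36 allele deleted by a Cre under the Csf1r promoter, which is active in monocytes and macrophages. They give a later age at sacrifice for those mice than the label, while the study's legend for this comparison gives the same age as the label. One Cd36KO library has a count column with no replicate number and is called the unnumbered Cd36KO library. The series text speaks of biological replicates, and the legend for this comparison counts individual mice, as many per group as there are libraries.

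Total counts per library were between 2679785 and 4097953, and between 13368 and 14698 genes had a count. Cd36 itself ranged from 2412 to 3505 normalized counts (counts divided by the library's size factor) among WT and from 1926 to 2384 among Cd36KO libraries, so its transcript remained abundant in every library labelled Cd36KO. The labels also name the cell type as stromal vascular fraction, yet the adipocyte genes Ucp1 (4235 to 12313 normalized counts over the 8 libraries) and Adipoq (2458 to 6294) were abundant throughout. The methods state that all mice were males, whereas Xist had 772 to 1588 counts per library and the Y-linked genes Uty, Kdm5d, Eif2s3y and Ddx3y had 3 counts in all.

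A skeletal muscle fibre contracts when calcium released from the sarcoplasmic reticulum binds troponin on the thin filaments and lets the myosin heads of the thick filaments pull on actin. Fast and slow fibres are built from different paralogs of the same parts, so that each has its own myosin heavy chains, light chains and troponins C, I and T. Fast fibres of mice are divided further by their heavy chain into IIA (Myh2), IIX (Myh1) and IIB (Myh4), and slow fibres carry Myh7. Brown adipocytes and skeletal muscle arise from a shared embryonic lineage.

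The 3 fast heavy chain genes are so alike that short reads cannot always tell them apart, which bears on the split of counts among them. A stretch of 75 coding bases, the length of the sequenced reads, is shown for the 3 fast heavy chains and the slow one (GENCODE M21 on GRCm38), with capitals at the positions that vary among the 4.
Myh4, chr11:67248473-67248547 (+): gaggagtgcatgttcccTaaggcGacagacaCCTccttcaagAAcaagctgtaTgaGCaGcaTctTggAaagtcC
Myh1, chr11:67208880-67208954 (+): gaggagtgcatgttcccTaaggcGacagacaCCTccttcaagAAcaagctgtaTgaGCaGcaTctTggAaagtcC
Myh2, chr11:67181062-67181136 (+): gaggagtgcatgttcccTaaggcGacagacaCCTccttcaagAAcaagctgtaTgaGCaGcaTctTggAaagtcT
Myh7, chr14:54987429-54987503 (-): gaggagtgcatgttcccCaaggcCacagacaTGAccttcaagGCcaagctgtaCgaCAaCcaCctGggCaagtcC
The stretch of Myh1 was identical to that of Myh4, that of Myh2 had 1 difference and that of Myh7 had 14. Over whole transcripts, 15.8% of the stretches of 75 bases in Myh1 also occurred in another gene, as did 13.9% in Myh2, 9.68% in Myh4 and 10.6% in Myh7, the last shared with the cardiac heavy chain Myh6 and with no fast heavy chain. Of the other members, Myl1 shared 8.08% of its stretches with the pseudogene Mylf-ps. In all, 9 of the 52 members shared at least 1 stretch, so the split of reads among these copies is uncertain. The strand setting of the counting was not stated either. Where a member overlaps an expressed gene on the opposite strand, as Mb does with Apol6, Myl3 with Pth1r, Myom1 with Myl12a and Des with Gm15179, reads from the overlap cannot be assigned with certainty.

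The members moved together over the libraries, and their promoters were searched for motifs of muscle regulators. RefSeq promoter windows on GRCm38.p6 (250 bases upstream of the start) were found for 38 members, with 45 distinct windows. Those of Myh4, Myl3 and Myl1 are shown, Myh4 as the most abundant fast heavy chain, Myl3 as the most abundant slow gene and Myl1 as the fast gene with the highest level relative to WT 1 in Cd36KO 2 and Cd36KO 3, with capitals at matches to MEF2, CArG, CAGCTG and CATTCC on either strand and to TATAAA on the sense strand, but not to CANNTG.
Myh4, chr11:67237562-67237811 (+): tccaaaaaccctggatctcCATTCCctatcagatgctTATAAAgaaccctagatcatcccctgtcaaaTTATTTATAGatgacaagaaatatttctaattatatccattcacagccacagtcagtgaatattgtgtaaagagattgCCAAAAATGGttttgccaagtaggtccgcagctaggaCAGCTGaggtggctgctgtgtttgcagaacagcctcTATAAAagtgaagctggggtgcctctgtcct
Myl3, chr9:110763428-110763677 (+): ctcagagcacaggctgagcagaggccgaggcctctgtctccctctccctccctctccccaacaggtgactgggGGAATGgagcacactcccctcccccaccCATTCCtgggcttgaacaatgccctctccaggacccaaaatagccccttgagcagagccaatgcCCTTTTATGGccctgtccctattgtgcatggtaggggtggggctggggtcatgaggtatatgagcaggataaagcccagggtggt
Myl1, chr1:66945057-66945306 (-): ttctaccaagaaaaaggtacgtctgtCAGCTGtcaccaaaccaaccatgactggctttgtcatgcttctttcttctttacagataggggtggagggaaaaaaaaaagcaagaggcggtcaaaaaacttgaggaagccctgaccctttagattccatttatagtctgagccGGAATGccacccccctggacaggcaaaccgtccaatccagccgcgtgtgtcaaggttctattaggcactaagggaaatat
A MEF2 motif was in 10 of the 45 windows (22.2%) against 2.89% of 32536 windows of all genes, and a CArG box, the motif of serum response factor, in 13.3% against 1.48%. The MyoD-type E-box CAGCTG was in 42.2% against 13.1%, and the wider E-box CANNTG, which includes it, in 86.7% against 66.2%. The MCAT motif CATTCC of TEAD factors was in 22.2% against 12.6%, and TATAAA, searched on the sense strand only, in 11.1% against 7.55%. Among fast genes 2 of 6 windows held a MEF2 match, and among slow genes 0 of 9. Each match is a description of letters in a window.

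The libraries formed a steep gradient in muscle transcripts that ran across both genotypes. Members took 3.75% of all counts in WT 1 (95% Wilson interval 3.73 to 3.77), 0.672% in WT 2, 0.0543% in WT 3 and 0.577% in WT 4. In Cd36KO they took 0.412% in the unnumbered library, 0.0234% in both Cd36KO 2 and Cd36KO 3, and 0.113% in Cd36KO 4. WT 3, with 1475 member counts, was thus below 2 of the 4 Cd36KO libraries, and the groups overlapped. Such intervals cover counting error only, since reads can be copies of one molecule and no molecular tag was described.

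Summed over the members, the level was 35900 ± 45230 normalized counts for WT against 4739 ± 6287 for Cd36KO (± SD over 4 libraries), a 7.57-fold difference of means with an SD larger than the mean in each group. Within WT the highest library exceeded the lowest 59.1-fold, and within Cd36KO 19.3-fold. The ratio of means fell to 2.89 when WT 1 was left out and rose to 21.5 when the unnumbered Cd36KO library was left out. In bulk tissue, fewer muscle cells in the sample and less muscle RNA per cell cannot be told apart.

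**Figure D1:**
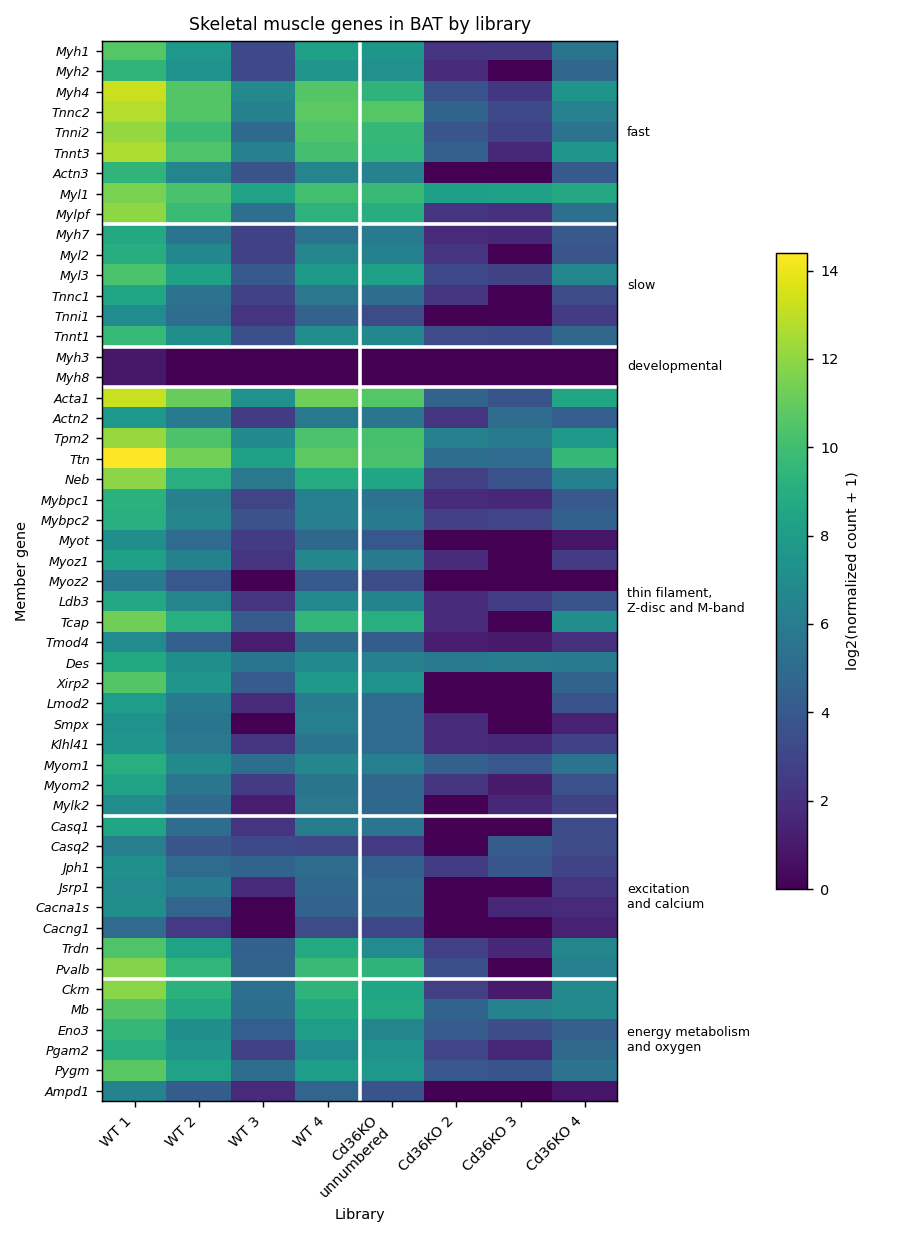
Level of each of the 52 members, as log2(normalized count + 1), in each of the 8 libraries, with genes grouped by role and a vertical line between WT and Cd36KO. WT 1 is the brightest column for every member with a mean of at least 10 normalized counts, and Cd36KO 2 and Cd36KO 3 are the darkest columns for most of them.

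The order of the libraries was nearly the same gene by gene. Of 49 members with a mean of at least 10 normalized counts, all 49 were highest in WT 1, compared with 18.9% of the 9834 genes at that level, and 45 were lowest in Cd36KO 2 or Cd36KO 3, compared with 17.1%. The unnumbered Cd36KO library exceeded WT 3 in 47 of the 49, and Cd36KO 4 exceeded it in 45. The Pearson correlation of a member with the sum of the other members, on log2(normalized count + 1) over 8 libraries, had a median of 0.975 and exceeded 0.9 for 45 of the 49. These correlations share the libraries and their depth and serve as a description.

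By DESeq2 over all genes, 1 of the 49 members with an adjusted p was past the threshold of 0.05, lower in Cd36KO, against a background of 1.53% of 9619 genes called lower and 2.95% called in either direction. The fold change of all 52 members pointed down in Cd36KO, with a median log2 fold change of -2.90, beside -0.009 over all genes with an adjusted p. At an unadjusted p under 0.05 stood 25 of the 52, against 5.2% of all genes fitted called lower. The standard errors were wide, with a median of 1.5 on the log2 scale for the members and 0.29 for all genes. Without WT 1 the median log2 fold change was -1.53, with 0 members past the adjusted threshold and 3 at an unadjusted p under 0.05, where 345 of the 10284 genes with an adjusted p were past it. Without the unnumbered Cd36KO library it was -4.63, with 13 members past the adjusted threshold and 48 at an unadjusted p under 0.05, where 113 of the 10518 genes with an adjusted p were past it. Only 1 of the 49 members had all 4 Cd36KO libraries below all 4 WT libraries, against 3.91% of genes at that level.

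**Figure D2:**
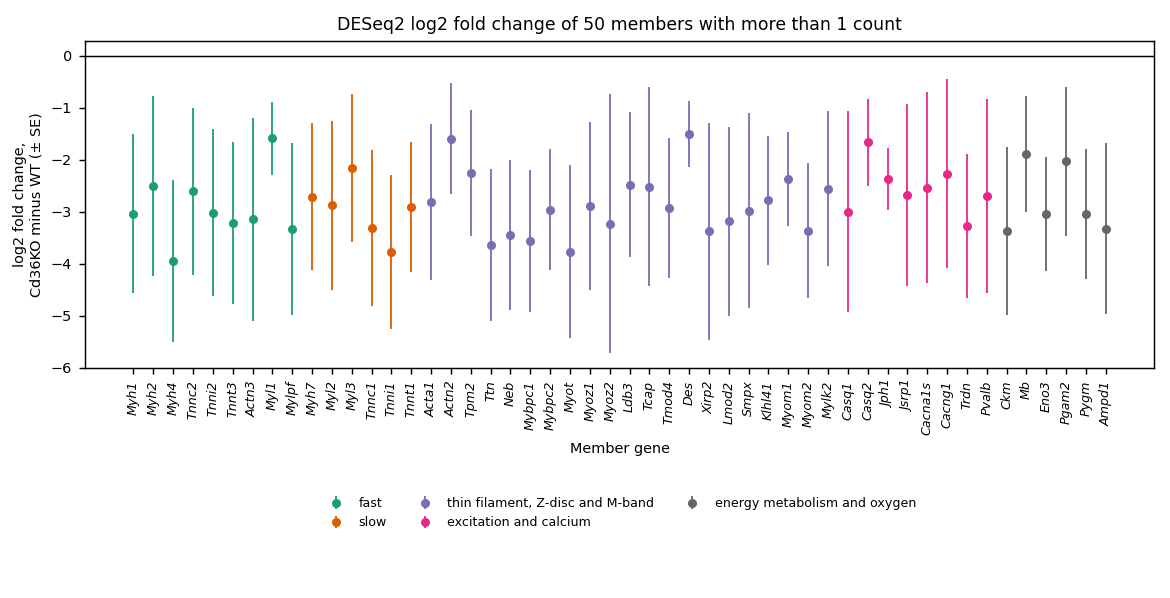
DESeq2 log2 fold change of Cd36KO minus WT for the 50 members with more than 1 count, coloured by role, with bars of 1 SE. Every point lies below 0, between -3.95 for Myh4 and -1.51 for Des, and the bars are shortest for Jph1, Des and Myl1.

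The 1 member past the threshold was Jph1 (chr1:16964560-17097889, minus strand), which encodes junctophilin 1, a protein that holds the sarcoplasmic reticulum against the transverse tubules. Below, the values of a gene are given first for WT 1, WT 2, WT 3 and WT 4 and then for the unnumbered Cd36KO library and Cd36KO 2, 3 and 4. Jph1 had 148, 31.4, 23.5 and 32.6 normalized counts in WT against 21.2, 4.6, 13.3 and 6.86 in Cd36KO. All 4 Cd36KO values were below all WT values, although by a narrow margin between the unnumbered library and WT 3. The log2 fold change was -2.37 (SE 0.60; DESeq2 adjusted p = 0.0102), and the exact two-sided permutation test gave p = 0.0286, the smallest that 4 against 4 libraries allow. Without WT 1 the log2 fold change was -1.37 (DESeq2 adjusted p = 0.145), and edgeR over all libraries gave an adjusted p of 0.121. Over the alternatives its adjusted p ran from 0.0039 to 0.217. Raw counts ran from 4 to 164.

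Fast fibre genes carried most of the fibre-type signal. Summed over the 9, they reached 13530 ± 16340 normalized counts for WT against 1808 ± 2490 for Cd36KO (± SD over 4 libraries), and 0 of 9 were past the adjusted threshold of DESeq2 (5 at an unadjusted p under 0.05), with a median log2 fold change of -3.04. With the unnumbered Cd36KO library left out, Myh4, Mylpf, Tnnc2 and Tnni2 passed that threshold, and with WT 1 left out none of the fast genes did. The most abundant fast gene by count was Myh4, with 9887, 1514, 107 and 1499 in WT and 653, 11.5, 4.09 and 172 in Cd36KO. This IIB heavy chain had a log2 fold change of -3.95 (SE 1.56; DESeq2 adjusted p = 0.154), which was -2.31 without WT 1 and -5.70 without the unnumbered Cd36KO library. WT 3 nevertheless lay below 2 Cd36KO libraries. Myh1, of IIX fibres, had 1545, 205, 8.23 and 303 in WT and 195, 3.45, 4.09 and 47.3 in Cd36KO. Myh2, of IIA fibres, had 695, 168, 8.23 and 179 in WT and 156, 2.30, 0 and 25.9 in Cd36KO. A value of 0 allows up to 3 counts, which correspond to 2.29 to 3.53 normalized counts in these libraries.

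The 3 fast troponins form the calcium switch of the thin filament. Tnnc2, the calcium-binding subunit, had 7000, 1469, 78.8 and 1773 in WT and 1572, 24.2, 8.18 and 83.1 in Cd36KO. The inhibitory subunit gene Tnni2 had 4426, 897, 29.4 and 1434 in WT and 771, 12.7, 6.14 and 44.2 in Cd36KO. Tnnt3, which anchors the complex to tropomyosin, had 6370, 1373, 78.8 and 1131 in WT and 748, 20.7, 2.05 and 191 in Cd36KO. For each of the 3, WT 3 was below the unnumbered library and Cd36KO 4, so the groups overlapped. Actn3, the alpha-actinin of fast Z-discs, had 673, 95.1, 11.8 and 92.0 in WT and 82.4, 0, 0 and 16.0 in Cd36KO. Mylpf, the fast regulatory light chain, had 3996, 898, 37.6 and 644 in WT and 505, 3.45, 3.07 and 38.9 in Cd36KO. Its log2 fold change was -3.34 (SE 1.65; DESeq2 adjusted p = 0.299).

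Myl1 (chr1:66924295-66945404, minus strand), which encodes the fast essential light chain, stood apart from the other fast genes. It had 2899, 1209, 319 and 1053 in WT and 830, 282, 305 and 407 in Cd36KO, and so stayed at 282 or more normalized counts in every library, Cd36KO 2 and Cd36KO 3 included, where each other fast gene was at 24.2 or less. Its log2 fold change was -1.59 (SE 0.70; DESeq2 adjusted p = 0.223). Myl1 supplied 7.73% of fast counts in WT 1, 15.5% in WT 2, 13.0% in WT 4 and 15.1% in the unnumbered Cd36KO library. In the libraries with little muscle RNA it supplied 47.0% (WT 3), 39.7% (Cd36KO 4), 78.3% (Cd36KO 2) and 91.7% (Cd36KO 3; 95% Wilson interval 88.2 to 94.2).

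Slow fibre genes followed the same gradient at a lower level. Summed over the 6, they reached 1195 ± 1547 normalized counts for WT against 196.8 ± 264.5 for Cd36KO (± SD over 4 libraries), and 0 of 6 were past the adjusted threshold of DESeq2 (3 at an unadjusted p under 0.05), with a median log2 fold change of -2.90. Myl3, a slow light chain that is also made in heart ventricle, had 1269, 307, 15.3 and 229 in WT and 299, 8.05, 6.14 and 95.3 in Cd36KO. Its unnumbered Cd36KO value exceeded WT 4 and nearly equalled WT 2. The slow heavy chain gene Myh7 had 413, 46.7, 5.88 and 42.5 in WT and 57.9, 2.30, 2.05 and 15.3 in Cd36KO. Myl2, the slow regulatory light chain, had 493, 104, 5.88 and 93.0 in WT and 78.0, 3.45, 0 and 13.0 in Cd36KO. Here too WT 3 fell below the unnumbered library and Cd36KO 4.

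The slow troponins were led by Tnnt1, the slow troponin T gene, with 815, 146, 10.6 and 136 in WT and 103, 9.21, 8.18 and 26.7 in Cd36KO. Tnnc1, troponin C of slow and cardiac muscle, had 364, 44.2, 5.88 and 51.4 in WT and 34.5, 3.45, 0 and 9.15 in Cd36KO. Tnni1, the slow inhibitory subunit, had 125, 34, 3.53 and 21.8 in WT and 8.91, 0, 0 and 4.58 in Cd36KO. Its log2 fold change was -3.77 (SE 1.48; DESeq2 adjusted p = 0.153). That of Myl3 was -2.16 (SE 1.42; adjusted p = 0.491 by DESeq2).

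**Figure D3:**
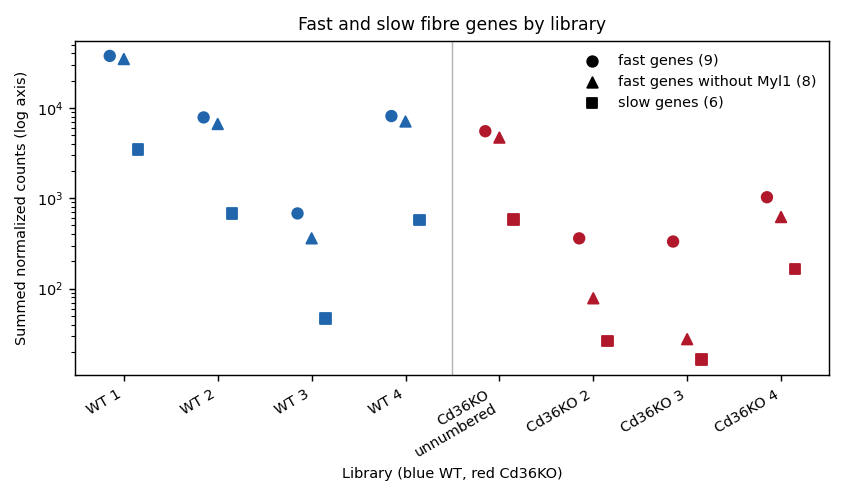
Summed normalized counts, on a log axis, of the 9 fast genes (circles), of the same genes without Myl1 (triangles) and of the 6 slow genes (squares) in each library, WT in blue and Cd36KO in red. The 3 sums fall together between WT 1 and the libraries with least muscle RNA, except that the fast sum with Myl1 stays above 300 in every library.

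The balance of fast and slow genes differed between the group means by less than the SD of the Cd36KO libraries. Fast genes took 92.6% ± 1.01 of fast plus slow counts in WT and 91.3% ± 3.92 in Cd36KO (± SD over 4 libraries). By library the share was 91.5%, 92.0%, 93.5% and 93.4% in WT and 90.5%, 93.2%, 95.3% and 86.2% in Cd36KO. With Myl1 left out, an alternative chosen after the data were seen, the share was 90.6% ± 1.66 for WT against 76.4% ± 10.8 for Cd36KO (± SD over 4 libraries). The libraries then read 90.9%, 90.7%, 88.4% and 92.5% in WT and 89.0%, 74.7%, 62.8% and 79.0% in Cd36KO. The values of Cd36KO 2 and Cd36KO 3 rest on 68 and 27 fast counts, with 95% Wilson intervals of 64.9 to 82.5 and 47.9 to 75.6, while Cd36KO 4 rests on 811 (76.4 to 81.4). These shares were not tested. Per kilobase of merged exons, mean normalized counts had a median of 440 over the fast genes (21.6 for Myh2 to 1880 for Tnnc2) and 56.1 over the slow genes (6.88 for Tnni1 to 136 for Myl3). The study's methods name the NEGEDIA Digital mRNA-seq service for the libraries. Whether its protocol yields counts in proportion to length was not stated, so levels per kilobase are uncertain.

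Among the heavy chains, Myh4 was the leading gene in WT. Of the counts of Myh1, Myh2, Myh4 and Myh7 it took 78.8%, 78.3%, 82.7% and 74.1% in the 4 WT libraries, and 61.5%, 58.8%, 40% and 66% in Cd36KO. The 4 Cd36KO shares were thus below the 4 WT shares. The unnumbered library (953 heavy chain counts, 95% Wilson interval 58.4 to 64.5) and Cd36KO 4 (341 counts, 60.8 to 70.8) carry this, since Cd36KO 2 and Cd36KO 3 had 17 and 10 counts and intervals that reached 78.4 and 68.7. Myh7 took 2.10% to 4.55% in WT and 5.46% to 20% in Cd36KO. Myh1 took 12.3%, 10.6%, 6.36% and 15% in WT and 18.4%, 17.6%, 40% and 18.2% in Cd36KO. The groups overlapped for Myh2, which took 5.54%, 8.7%, 6.36% and 8.85% in WT and 14.7%, 11.8%, 0% and 9.97% in Cd36KO. The heavy chain shares were singled out after their values were seen and were not tested. How reads shared among the fast heavy chains were counted was not stated, so the shares of Myh1, Myh2 and Myh4 are uncertain.

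**Figure D4:**
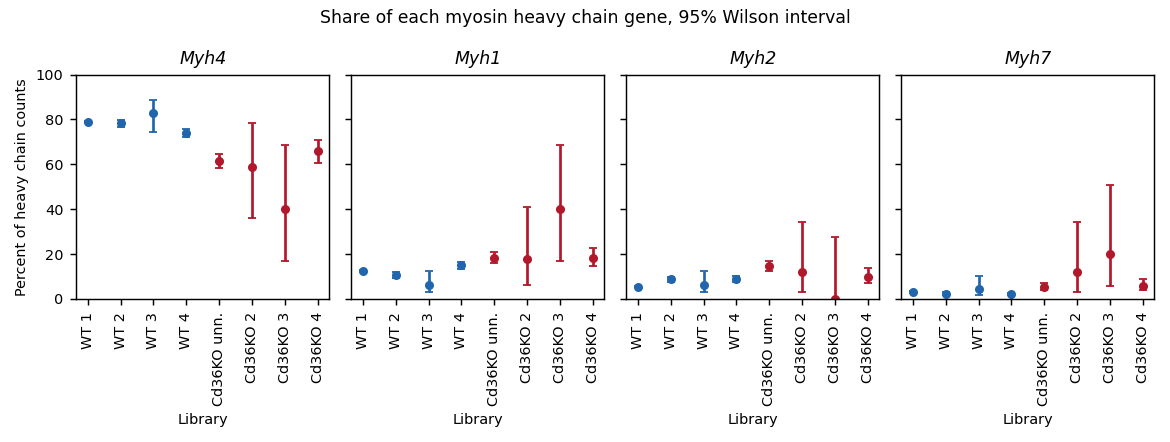
Percent of the counts of Myh4, Myh1, Myh2 and Myh7 taken by each gene in each library, WT in blue and Cd36KO in red, with bars of the 95% Wilson interval for counting error. The Myh4 points lie between 74.1 and 82.7 in WT and between 40 and 66 in Cd36KO, with wide bars for Cd36KO 2 and Cd36KO 3.

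The developmental heavy chains Myh3 and Myh8, which mark embryonic and newborn or regenerating muscle, had 1 count each, both in WT 1, and 0 in the other 7 libraries.

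The 21 other sarcomere genes of the thin filament, Z-disc and M-band had a median log2 fold change of -2.93 (from -3.77 to -1.51), and 0 of 21 were past the adjusted threshold of DESeq2 (10 at an unadjusted p under 0.05). The edgeR test called none of the members in any group (0 of 46 tested, 41 at an unadjusted p under 0.05), and over all genes it called 14 of 9793 (1580 at an unadjusted p under 0.05). Ttn, the giant elastic protein titin, had the most counts of any member, 21639, 2535, 305 and 1720 normalized in WT and 1246, 35.7, 31.7 and 783 in Cd36KO. Acta1, skeletal alpha-actin, had 9349, 2135, 155 and 2377 in WT and 1577, 23.0, 12.3 and 372 in Cd36KO. Tpm2, beta-tropomyosin, had 4558, 1327, 114 and 1291 in WT and 1165, 78.2, 60.3 and 220 in Cd36KO. These 3 kept the common order of libraries. The 2 genes of this group least like the sum were Actn2 and Des, with correlations of 0.841 and 0.869. Actn2, the other sarcomeric alpha-actinin, had 203, 58.6, 4.70 and 55.4 in WT and 50.1, 3.45, 33.8 and 19.1 in Cd36KO, so Cd36KO 3 was above WT 3. Des, the intermediate filament desmin, which smooth muscle and pericytes also make, had 426, 143, 47.0 and 116 in WT and 76.9, 55.2, 64.4 and 60.3 in Cd36KO. Its Cd36KO values were close together, with 64.2 ± 9.25 (± SD over 4 libraries). The remaining 16 of this group, among them the myosin-binding proteins Mybpc1 and Mybpc2, the Z-disc proteins Myot, Myoz1, Tcap and Ldb3 and the M-band proteins Myom1 and Myom2, had log2 fold changes between -3.77 (Myot) and -2.37 (Myom1), and each was highest in WT 1.

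The make-up of the muscle transcripts also differed between libraries. Ttn took 21.1%, 12.9%, 17.6% and 8.73% of member counts in WT and 8.92%, 4.94%, 4.28% and 22.1% in Cd36KO, so its share was highest in Cd36KO 4 and WT 1 and lowest in Cd36KO 3 and Cd36KO 2. Neb, which encodes the thin filament ruler nebulin, took 3.68%, 2.80%, 3.12% and 2.42% in WT and 2.50%, 0.797%, 1.52% and 2.22% in Cd36KO, and did not share the high value of Cd36KO 4. Of Tnnc2 plus Tnnt3 counts, Tnnc2 took 50.0% to 61.1% in WT, 67.8% in the unnumbered library (95% Wilson interval 65.7 to 69.7) and 30.3% in Cd36KO 4 (25.8 to 35.2). In Cd36KO 2 it took 53.8% of 39 counts, within the WT range, and in Cd36KO 3 it took 80% of 10 counts (49.0 to 94.3). These shares were singled out after their values were seen and were not tested.

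The 8 genes of excitation and calcium handling had a median log2 fold change of -2.62, and 1 of the 7 with an adjusted p, Jph1, was past the threshold. Pvalb, the calcium buffer of fast fibres, had 3359, 707, 23.5 and 841 in WT and 671, 10.4, 0 and 76.3 in Cd36KO. Trdn, triadin of the calcium release complex, had 1408, 322, 20 and 454 in WT and 124, 5.75, 2.05 and 96.1 in Cd36KO. Casq1, the calsequestrin of fast fibres, had 360, 34.8, 3.53 and 66.3 in WT and 49.0, 0, 0 and 9.15 in Cd36KO. Its slow and cardiac paralog Casq2 had 70.4, 13.6, 8.23 and 6.92 in WT and 4.46, 0, 17.4 and 9.15 in Cd36KO. Casq2 had the lowest correlation with the sum of the other members, 0.593, and was higher in Cd36KO 3 than in WT 2. Cacna1s, Cacng1 and Jsrp1, parts of or partners of the voltage sensor of the transverse tubule, had at most 141 normalized counts in any library.

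The 6 genes of energy metabolism and oxygen storage had a median log2 fold change of -3.05, and 0 of 6 were past the adjusted threshold of DESeq2 (4 at an unadjusted p under 0.05). Ckm, muscle creatine kinase, had 3619, 616, 37.6 and 661 in WT and 360, 5.75, 1.02 and 110 in Cd36KO. Pygm, muscle glycogen phosphorylase, had 1673, 315, 32.9 and 264 in WT and 205, 13.8, 12.3 and 44.2 in Cd36KO. Both followed the common order. Mb, the oxygen-binding protein myoglobin, had 1512, 416, 36.5 and 428 in WT and 427, 24.2, 82.9 and 111 in Cd36KO, with a log2 fold change of -1.89 (SE 1.11; DESeq2 adjusted p = 0.416). Its unnumbered Cd36KO value lay beside those of WT 2 and WT 4. Eno3, muscle enolase, had 768, 145, 18.8 and 270 in WT and 98.0, 17.3, 10.2 and 19.8 in Cd36KO, with the lowest adjusted p after Jph1 (DESeq2, 0.108). The glycolytic Pgam2 and the nucleotide enzyme Ampd1 had log2 fold changes of -2.03 and -3.33.

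A few members kept a much larger part of their WT 1 level than the rest in Cd36KO 2, Cd36KO 3 and WT 3. In Cd36KO 3 the median member with a mean of at least 10 had 0.147% of its WT 1 level and 16 of 49 were at 0, yet Actn2, Casq2, Des, Jph1, Mb and Myl1 had more than 5%, up to 24.7% for Casq2. In Cd36KO 2 the median was 0.345% with 12 at 0, and Des and Myl1 had more than 5%. In WT 3 the median was 1.30%, and Casq2, Des, Jph1, Myl1 and Myom1 had more than 5%. The separation was less sharp in Cd36KO 4, where the median was 3.06% and 10 of 49 had more than 5%. These genes were singled out by their values, and the level of 5% was set after seeing them. Myl1, Des, Myom1, Casq2 and Jph1 were also the 5 members with a standard error of the fold change below 1.

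**Figure D5:**
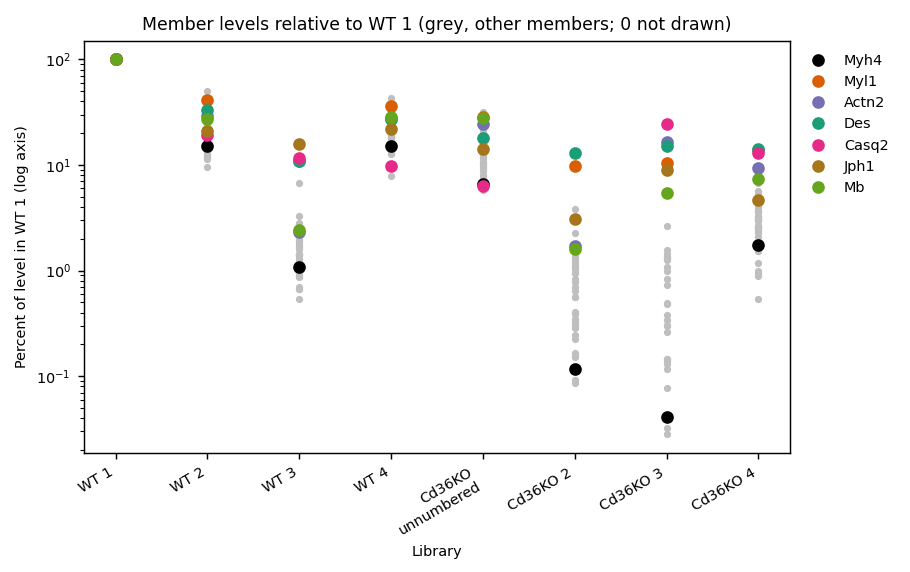
Level of each of the 49 members with a mean of at least 10 normalized counts as a percent of its level in WT 1, on a log axis, by library, with 7 members coloured and values of 0 not drawn. In Cd36KO 3 the coloured points of Casq2, Actn2, Des, Myl1, Jph1 and Mb lie between 5.48 and 24.7, whereas Myh4 lies at 0.0414.

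Of genes outside the members, the 10 most like the summed members over the 8 libraries were Hspb6, Lmod3, Ankrd2, Trim63, Csrp3, Hfe2, Mylk4, Klhl31, Ckmt2 and Rpl3l, with Pearson correlations of 0.984 to 0.997. Among the 9785 genes at a mean of at least 10 normalized counts, 67 (0.685%) had a correlation above 0.9. Hspb6, a small heat shock protein gene, had the highest correlation, with 938, 312, 82.3 and 323 normalized counts in WT against 237, 44.9, 53.2 and 115 in Cd36KO. None of the 10 was past the adjusted threshold (DESeq2 adjusted p from 0.18 to 0.526).

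On a list of 55 further skeletal muscle genes, 54 had a count, and 2 of the 36 with an adjusted p were called, both lower in Cd36KO, against 1.53% of all genes with an adjusted p, with a median log2 fold change of -2.76 over the list. The calls were Clcn1, the muscle chloride channel, with 72.2, 10.2, 1.18 and 18.8 in WT and 2.23, 3.45, 0 and 4.58 in Cd36KO (log2 fold change -3.30, SE 0.94; DESeq2 adjusted p = 0.0270), and Cmya5, a partner of sarcomere and membrane proteins, with 688, 91.7, 27.1 and 97.9 in WT and 33.4, 18.4, 26.6 and 16.0 in Cd36KO (log2 fold change -3.26, SE 0.95; DESeq2 adjusted p = 0.0304). The groups overlapped for both, since WT 3 was below a Cd36KO library. Without WT 1 the log2 fold changes were -1.96 for Clcn1, with no adjusted p, and -1.63 for Cmya5 (DESeq2 adjusted p = 0.00758). Atp2a1, the fast calcium pump, had 4384, 742, 92.9 and 813 in WT and 521, 10.4, 8.18 and 128 in Cd36KO, and did not pass (DESeq2 adjusted p = 0.236). Its slow paralog Atp2a2, which is made in many cell types, had 555, 268, 209 and 331 in WT and 343, 198, 278 and 253 in Cd36KO, a much narrower range, again highest in WT 1.

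Regulators of muscle formation were scarce. Of 18 genes of myogenic regulation and satellite cells, 17 had a count, yet Pax7, Pax3, Myf5, Myod1, Myog and Myf6 stayed at or below 4.51 normalized counts in every library and Mymx was at 0. Of the 7 with an adjusted p, 1 was called, lower in Cd36KO, against 1.53% of all genes called lower. It was Tbx15, a T-box factor of glycolytic fibres and brown adipocytes, with 39.7, 32.3, 25.9 and 22.8 in WT and 5.57, 4.6, 7.16 and 6.10 in Cd36KO (log2 fold change -2.36, SE 0.47; DESeq2 adjusted p = 0.000236). Its groups did not overlap, and without WT 1 it still passed (log2 fold change -2.20; DESeq2 adjusted p = 0.00346). All Cd36KO values were below all WT values for 2 of the 7 list genes with a mean of at least 10 normalized counts. Over all genes at that level the share was 3.91%.

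Markers of other tissues were measured beside the members. Of 12 cardiac genes, 5 had a count and Nppa, Nppb, Myl7, Mybpc3, Gata4, Nkx2-5 and Kcnj3 were at 0 in all libraries, with a summed level of 12.7 to 56.5 in WT and 11.5 to 39.9 in Cd36KO. Much of that sum was Tbx5, with 9.93 to 54.1 in WT and 10.4 to 36.8 in Cd36KO. Tnnt2, cardiac troponin T, had 18.1 in WT 1 and 0 in every other library. Of 9 tendon genes, 5 had a count, Mkx, Comp, Kera and Chad were at 0, and the sum was 13.8 to 37.9 in WT and 16.4 to 24.4 in Cd36KO. The 10 smooth muscle genes that are not members summed to 871, 503, 682 and 468 in WT and 858, 620, 546 and 590 in Cd36KO, a much narrower range than that of the members. Schwann cell and nerve genes (10 of 10 with a count) summed to 664 to 963 in WT and 809 to 1361 in Cd36KO. Stromal vascular genes (14 of 15 with a count, Cd79a at 0) summed to 714 to 1052 in WT and 855 to 939 in Cd36KO, with 0 called.

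Some brown adipocyte genes were higher in Cd36KO. The sum of the list (15 of 15 with a count) was 19398 to 25012 in WT and 33885 to 43967 in Cd36KO, and 5 of the 14 with an adjusted p were called higher in Cd36KO, namely Ucp1, Cidea, Cox8b, Cox7a1 and Letmd1, against 1.42% of all genes with an adjusted p. The brown fat genes Otop1 and Zic1 had log2 fold changes of -0.15 and 0.00. Pan-adipocyte genes (10 of 10 with a count) summed to 35787 in WT 1, the lowest of all libraries, to 58932 to 76929 in the other WT libraries and to 41837 to 58264 in Cd36KO. The lists share no gene with the members except Des and Tpm2 of the smooth muscle list. The part of these tissues in the muscle values was not tested.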

How the data were processed

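BAT RNA of 4 WT and 4 Cd36KO samples was sequenced as single-end reads of 75 bases. By the study's methods, the authors used bbduk for trimming, STAR for alignment to mm10, HTSeq-count for gene counts and DESeq2 for differential expression. The submitters' processing notes name Trimmomatic, HISAT2 and DESeq2 on GRCm38, and the study's resource table also lists Trimmomatic and HISAT2. Strandedness, annotation release and molecular tags are not given in the sources used here. The deposited counts are whole reads per gene, not normalized. The other table, also deposited, holds log2 values made by the authors, which were checked to equal log2(count/size factor + 1), and was used for 1 alternative. Groups came from the labels.

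Genotypes were compared with DESeq2 1.42.0 in R 4.3.3 (Wald test with median-of-ratios scaling) over all genes, with Benjamini-Hochberg adjustment and a threshold of 0.05, and single members also with an exact two-sided permutation test on log2(normalized count + 1) over 70 arrangements (SciPy 1.17.1). The smallest p of that test is 0.0286. Medians and counts over members are descriptions. Alternatives were edgeR 4.0.16 (quasi-likelihood), TMM factors in DESeq2, a minimum of 10 counts in at least 4 libraries, independent filtering or Cook's filter off, limma 3.58.1 (trend) on the log2 values, a replicate block and leaving out each library. Functions were tested on simulated data. Symbols, coordinates and exons came from GENCODE M21, and promoters from RefSeq.

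The members and lists were chosen with earlier results of these data known. By rule, libraries are given for the fast and slow genes with a mean of at least 10 normalized counts, and in each other role group for the 3 most abundant members and the 2 least correlated with the remaining members. Outside the members, the 10 genes most correlated with their sum are named, and genes of the other lists were named after their values were seen. Figures were drawn with matplotlib 3.10.9. Total counts per library were 2679785 to 4097953. In Cd36KO 2 and Cd36KO 3, 27 and 28 of 49 members had at most 3 counts, which limits the precision of their values.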

Additional observations from a re-analysis of the deposited data

Results flagged for a closer look

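Of 104 sets of 4 libraries examined (49 members, their sum and the fast share with and without Myl1, in each genotype), 1 had a library far from the other 3 by Dixon's 95% criterion, where chance would flag about 5.2. Myoz2, which encodes a Z-disc protein that binds calcineurin, had a log2(normalized count + 1) of 3.46 in the unnumbered Cd36KO library and 0 in the other 3 Cd36KO libraries. With 3 values at 0 the criterion is met by any count above 0 in the fourth library, so the flag says nothing of the size of that value. In WT it had 63.2, 14.4, 0 and 15.8 normalized counts.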

How the results depend on the processing

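All 52 members kept a negative fold change under each alternative in which they were fitted. The count of members past the threshold, 1 by DESeq2, was 0 by edgeR (41 at an unadjusted p under 0.05), 0 by limma on the authors' log2 values (36) and 0 with the count filter (23). Leaving out 1 library gave 0 to 13 members. It was 0 without WT 1, WT 4 or Cd36KO 4, 3 without WT 3 (Des, Eno3 and Jph1) and 13 without the unnumbered Cd36KO library, and Jph1 had no adjusted p without WT 4. Over all genes, 284 were past the threshold by DESeq2, 14 by edgeR, 0 by limma (1542 at an unadjusted p under 0.05), 171 with independent filtering off, and 69 to 507 when a library was left out. The median log2 fold change of the members was -4.63 to -1.53 when a library was left out. The Cd36KO minus WT difference in fast share, -1.31 percentage points, was -14.2 without Myl1, 0.57 without Myh4 and Myl3, 0.378 without Cd36KO 4 and at lowest -2.65 among the other libraries left out. With the replicate number as a block over the 6 numbered libraries, 29 members and 219 of 12074 genes were past the threshold, against 11 members and 262 of 11431 genes when those libraries were fitted with no block, a fit added after the data were seen. Deviations of same-numbered libraries correlated by -0.0569, 0.218 and 0.099, so the numbers were not taken to pair the samples. The causes of these changes were not tested. In Cd36KO 2 and Cd36KO 3, 12 and 16 of 49 members had 0 counts, so values there are imprecise, although Cd36KO 3 had more counts in total (3092426) than WT 1 (3027860).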

Other observations

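Of the 10 genes of the smooth muscle list with an adjusted p, 1 was called, lower in Cd36KO, against 1.53% of all genes called lower. It was Synpo2, which encodes an actin-bundling protein of smooth and striated muscle. Synpo2 had 152, 50.1, 44.7 and 46.5 normalized counts in WT and 33.4, 12.7, 10.2 and 24.4 in Cd36KO (log2 fold change -1.86, SE 0.48; DESeq2 adjusted p = 0.0106). All 4 Cd36KO values were below the 4 WT values, as for 3.91% of genes with a mean of at least 10 normalized counts. Without WT 1 its log2 fold change was -1.22 (DESeq2 adjusted p = 0.0802). Mef2c, a transcription factor of muscle and endothelium, had 701, 234, 219 and 194 in WT and 215, 108, 178 and 185 in Cd36KO and did not pass (DESeq2 adjusted p = 0.137). Of the 10 pan-adipocyte genes with an adjusted p, 1 was called, the leptin gene Lep, lower in Cd36KO, against the same 1.53% of all genes. Lep had 35.2, 118, 136 and 150 in WT and 17.8, 11.5, 21.5 and 28.2 in Cd36KO (log2 fold change -2.46, SE 0.42; DESeq2 adjusted p = 9.59e-06), and unlike the members it was lowest among WT libraries in WT 1.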
